A study of Gallus gallus with 4 samples.

Results

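Myostatin, the activins, the follistatins and their receptors form a secreted signalling system that sets the size of skeletal muscle. The 10 genes examined here included the ligand genes MSTN, GDF11, INHBA and INHBB. The others were the follistatin gene FST, the follistatin-like genes FSTL1 and FSTL3, and the receptor genes ACVR1B, ACVR2A and ACVR2B. All 10 were chosen by gene symbol, and 8 of the 10 had a row of their own among the 18973 rows of the deposited expression table. The authors had tested 5 of these 8, out of 11626 tested rows in all.

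RNA came from the breast (pectoralis) muscle of 28-day-old birds of Ross 708, a commercial broiler line, and of Isfahani, a native Iranian chicken. Each breed was sequenced as 2 libraries, each mixed from the RNA of 3 birds, and the labels give no sex and no treatment. The table holds 1 value per breed and gene in FPKM, fragments scaled by transcript length and library size, so no level below has an SD. Every row of the table names its samples as "Native" and "Commercial". "Native" was taken as Isfahani, whose breed label reads "Isfahani's native chickens", and "Commercial" as Ross 708, the group that remained. Because the birds were pooled and the tissue was sequenced whole, variation between birds is not visible, and fewer cells of a type and less RNA per cell cannot be told apart.

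The ligands of this system are made as precursors, cut by proteases, and bind as dimers to a type II receptor (ACVR2A or ACVR2B), which activates a type I receptor such as ACVR1B. The receptor complex then phosphorylates SMAD2 and SMAD3. Follistatin, encoded by FST, wraps around the mature ligand and keeps it from its receptors. Loss of myostatin enlarges muscle in mice, cattle and other mammals, and follistatin enlarges muscle in mice when it is overproduced.

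Myostatin RNA was higher in Ross 708, and no other tested member was called different between the breeds. A gene was called when the q-value in the authors' deposited table was at or under 0.05, which held for 5.21% of all tested rows, for 3.07% as higher and for 2.14% as lower in Ross 708. Of the 5 tested members, 1 was called higher, 0 were called lower and 4 were not called, and 1 had an unadjusted p under 0.05. With 5 members, the share called cannot be set apart from the background share. The share of all tested rows at an unadjusted p under 0.05 was not computed, here or for the lists below. Whether counts at that p exceed it was therefore not tested. Each log2 ratio sets Ross 708 over Isfahani after 1 FPKM was added to both, unless stated, so positive values are higher in Ross 708. The median ratio was 0.28 over the 5 tested members and -0.034 over all tested rows.

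**Figure D1:**
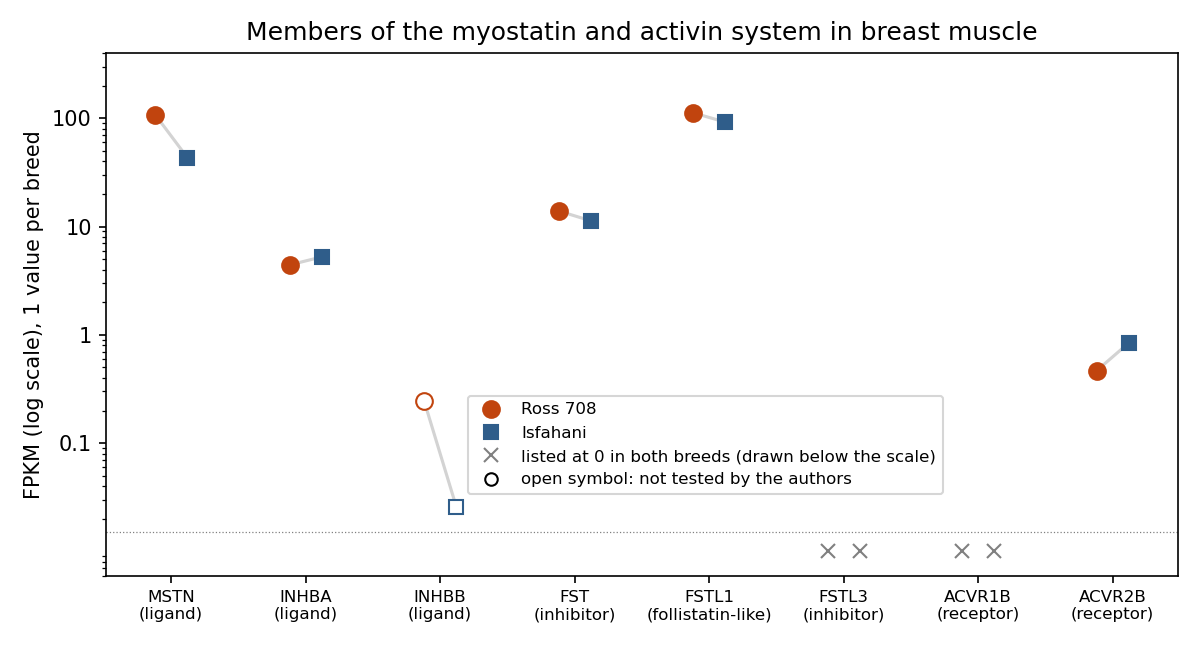
FPKM of the 8 members with a row, on a log scale, with Ross 708 as circles and Isfahani as squares; open symbols were not tested by the authors, and crosses below the dotted line are members listed at 0 in both breeds. MSTN shows the widest gap among the tested members, at 108 FPKM in Ross 708 and 43.3 FPKM in Isfahani.

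MSTN encodes myostatin, a ligand made mainly by muscle fibres that restrains muscle growth. It stood at 108 FPKM in Ross 708 and at 43.3 FPKM in Isfahani, a level 2.50 times as high in the broiler. The log2 ratio was 1.30, with a q-value of 0.00245 in the authors' deposited table, where its p-value of 5e-05 is the smallest the table holds and is shared by 237 tested rows. Only 163 of the 11626 tested rows had a larger ratio. Of the 357 rows called higher in Ross 708, 33, MSTN included, reached at least the level of MSTN in Ross 708. A larger ratio than that of MSTN was found for 19 of these. Its level lay at percentile 94.8 of tested rows in Ross 708 and at percentile 86.6 in Isfahani. The row covers chromosome 7 from 195585 to 202137 and overlaps no other row. Coordinates here and below are those of the table, counted from 1, whose build is uncertain, since the submitters' processing notes name galGal5 while the table uses sequence names of the earlier galGal4.

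INHBA encodes the subunit of activin A, a ligand that uses the same type II receptors as myostatin. It stood at 4.42 FPKM in Ross 708 and at 5.25 FPKM in Isfahani, with a log2 ratio of -0.21 and a q-value of 0.821 in the authors' deposited table. The difference was small and was not called, and INHBA lay on chromosome 2 from 51164558 to 51185833. INHBB, the subunit gene of activin B, was close to the lower end of what the table lists, at 0.247 FPKM in Ross 708 and 0.0259 FPKM in Isfahani. The authors' table marks it as not tested, and its row (chromosome 7, 25068118 to 25068894) spans only 777 bases. Its log2 ratio was 0.28 with a pseudocount of 1 FPKM and 3.26 with none, so these values give no usable size for the difference. GDF11, the closest relative of MSTN, was matched by no row and was not analysed here.

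FST encodes follistatin, the antagonist that binds myostatin and activins. It stood at 13.9 FPKM in Ross 708 and at 11.3 FPKM in Isfahani, a log2 ratio of 0.28, and the authors' deposited table gives a q-value of 0.6995. The row lies on chromosome Z, a sex chromosome, from 15930691 to 15938408. The labels give no sex, so the part of sex in the ratio of FST was not tested. FSTL1 encodes a secreted glycoprotein with a follistatin-type domain that is widely made by mesenchymal cells and, in mammals, is also released by muscle. It was the most abundant member in each breed, at 112 FPKM in Ross 708 and 91.99 FPKM in Isfahani, with the same rounded ratio as FST, 0.28 (q = 0.694 in the authors' deposited table). FSTL1 lies on chromosome 1 from 79303743 to 79347122. Neither gene was called.

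These 2 genes kept almost the same proportion to each other in the breeds. FSTL1 was 8.05 times as high as FST in Ross 708 and 8.15 times as high in Isfahani, on the FPKM scale. The proportion of MSTN to each differed more. MSTN was 7.76 times as high as FST in Ross 708 and 3.84 times as high in Isfahani. MSTN nearly equalled FSTL1 in Ross 708, at 0.963 of its level, and stood at 0.471 of it in Isfahani. Against INHBA, MSTN was 24.5 times as high in Ross 708 and 8.26 times as high in Isfahani. No spread per breed was at hand, so none of these proportions was tested.

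The order of levels was the same in each breed, with FSTL1 first, then MSTN, FST, INHBA and ACVR2B. Of the summed FPKM of the 5 tested members, 239 in Ross 708 and 153 in Isfahani, MSTN made up 45.2% in Ross 708 and 28.4% in Isfahani. FSTL1 made up 46.9% in Ross 708 and 60.2% in Isfahani. Whether neighbours in this order differed beyond their spread could not be judged from 1 value per breed.

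The receptors were the least well measured members. ACVR2B, a type II receptor for myostatin and activins, stood at 0.465 FPKM in Ross 708 and at 0.844 FPKM in Isfahani (chromosome 2, 5719534 to 5776257). This is near the bottom of the table, at percentile 1.90 of tested rows in Ross 708 and percentile 7.98 in Isfahani. Its log2 ratio was -0.33 with the pseudocount of 1 FPKM and -0.86 without one, and its q-value was 0.453 in the authors' deposited table. The other type II receptor gene, ACVR2A, had no row of its own. It appears only in a row named jointly for ACVR2A and its neighbour MBD5, a chromatin protein gene. That row stood at 12.9 FPKM in Ross 708 and 17.3 FPKM in Isfahani, a log2 ratio of -0.39. Its q-value of 0.566 in the authors' deposited table missed the threshold. The same interval, chromosome 7 from 34000145 to 34203645, is also given to a row for ORC4, so the share of ACVR2A in this value is unknown.

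ACVR1B, the main type I receptor for activins, and FSTL3, a follistatin-like antagonist of myostatin and activins, were listed at 0 FPKM in both breeds. These zeros cannot be read as silence of the genes. ACVR1B is placed on the linkage group LGE22C19W28_E50C23 and FSTL3 on an unplaced scaffold, and all 1186 rows on linkage groups and unplaced scaffolds are listed at 0 in both breeds. On all other sequences 2641 of 17787 rows, or 14.8%, are at 0 in both. The 5 tested members and INHBB lie on numbered chromosomes or on Z, where 14.4% and 20.8% of rows are at 0. The same pattern covers ACVRL1, SMAD7 and COL1A1, other genes of this signalling family or its targets, whose rows on unplaced scaffolds are also at 0.

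**Figure D2:**
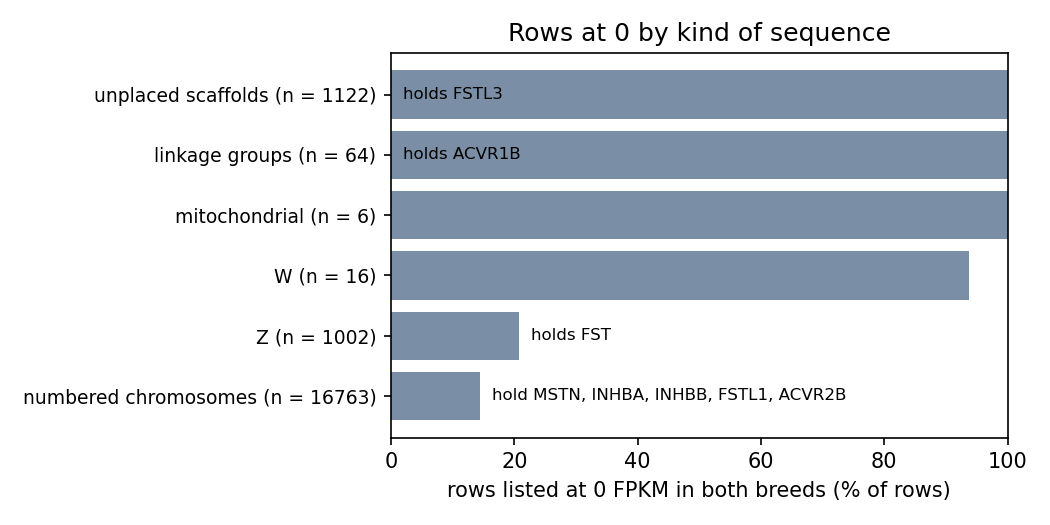
Share of rows listed at 0 FPKM in both breeds, in percent of the rows on each kind of sequence, with the number of rows in brackets. Every row on unplaced scaffolds (1122) and on linkage groups (64) is at 0, which covers FSTL3 and ACVR1B, while 14.4% of the rows on numbered chromosomes are.

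The smallest differences that were called were read from rows of similar level. Among 2308 tested rows with a mean FPKM within 1.5-fold of that of FST, the smallest absolute log2 ratio called was 0.76, and around FSTL1, with 530 rows, it was 0.83. Around INHBA, with 2334 rows, it was 0.68, and around ACVR2B, with 1022 rows, 0.38. The ratios of FST, FSTL1, INHBA and ACVR2B lay below these sizes. A call also depends on the spread of each row, so these sizes are no limit of detection, and no power was computed. Equal levels are not shown. Around MSTN, with 705 rows, the smallest called ratio was 0.83 and the median called ratio 1.05, against 1.30 for MSTN.

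**Figure D3:**
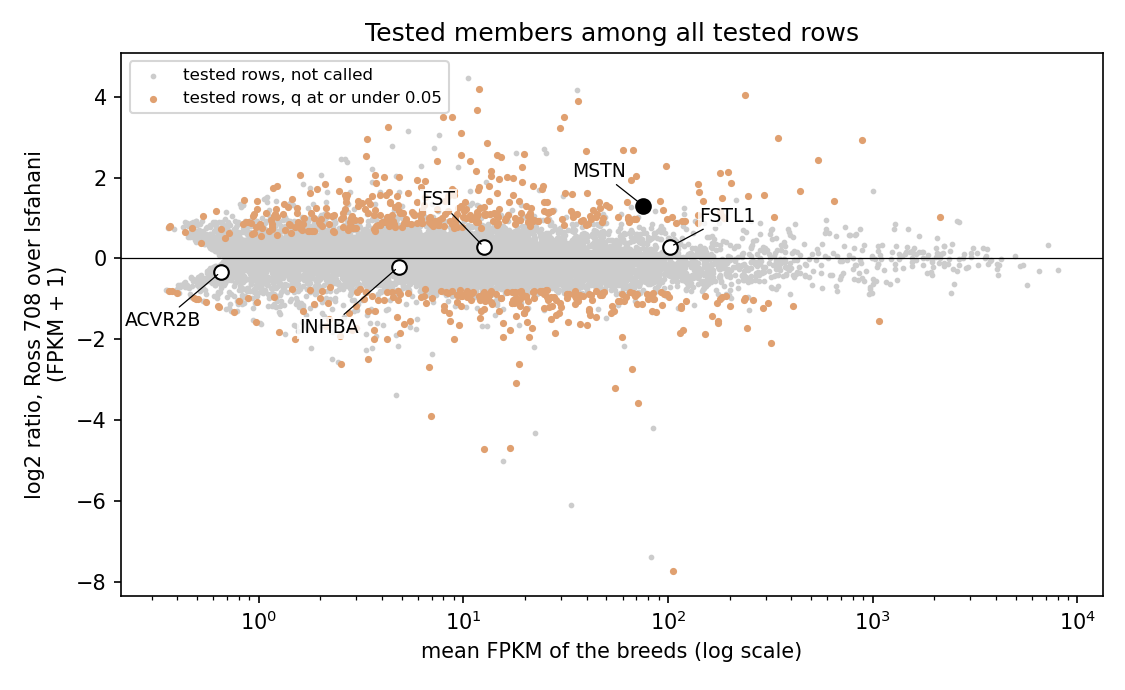
Log2 ratio of Ross 708 over Isfahani (FPKM + 1) against the mean FPKM of the breeds on a log scale, for all tested rows; rows with a q-value at or under 0.05 are orange. The filled black point is MSTN at 1.30, with 163 tested rows at a larger ratio, and the open points are FST and FSTL1 at 0.28, INHBA at -0.21 and ACVR2B at -0.33.

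Other genes of the pathway were followed in 4 lists, of related ligands, of extracellular binders and proteases, of further receptors, and of SMAD proteins and their regulators. Of 34 genes tested in these lists, 0 were called in the authors' deposited table, beside 5.21% of all tested rows. This count of 0 was not tested against that share, and an unchanged pathway is not shown. In the same deposited table, 6 of the 34 genes had an unadjusted p under 0.05. The share of all tested rows at that p was not computed, so no excess is shown by this count. The median log2 ratio of the 34 genes was 0.09, or between -0.35 for the 2 tested ligands and 0.28 for the 14 tested binders and proteases. The 5 tested receptors had a median of 0.05, which turned to -0.08 when FPKM values were scaled so that all rows add up alike in the breeds. The 13 tested SMAD genes and regulators had a median of -0.05, which came to 0.00 on centring.

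Among the related ligands, INHA, the inhibin alpha subunit that opposes activin, stood at 0.535 FPKM in Ross 708 and 1.31 FPKM in Isfahani. GDF10 stood at 0.735 FPKM in Ross 708 and 0.866 FPKM in Isfahani. Among binders, DCN, the matrix proteoglycan decorin that can bind myostatin, stood at 485 FPKM in Ross 708 and 334 FPKM in Isfahani (q = 0.644 in the authors' deposited table). FURIN, a protease that cuts ligand precursors, stood at 34.5 FPKM in Ross 708 and 42.4 FPKM in Isfahani. These genes were not called.

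Among the further receptors, ACVR1, a type I receptor used by BMPs and activins, stood at 17.3 FPKM in Ross 708 and 16.7 FPKM in Isfahani. TGFBR2, the type II receptor for TGF-beta, came nearest to a call, at 20.8 FPKM in Ross 708 and 12.5 FPKM in Isfahani (log2 ratio 0.70, q = 0.0875 in the authors' deposited table). TGFBR1, a type I receptor that myostatin can also use in mammals, stood at 9.10 FPKM in Ross 708 and 7.99 FPKM in Isfahani, and 2 other rows overlap it. The intracellular carriers of the signal were not called either. SMAD2 stood at 14.4 FPKM in Ross 708 and 14.01 FPKM in Isfahani, and SMAD3 at 6.34 FPKM in Ross 708 and 4.22 FPKM in Isfahani. The phosphatase gene PPM1A (55.4 FPKM in Ross 708 and 74.3 FPKM in Isfahani) and the deubiquitinase gene USP15 (33.8 FPKM in Ross 708 and 52.5 FPKM in Isfahani), both known to act on SMAD signalling in mammalian cells, were not called.

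Of 8 tested genes with follistatin-type domains or linked to FSTL1, 0 were called in the authors' deposited table, beside 5.21% of all tested rows. In the same deposited table, 1 of the 8, FSTL4, had an unadjusted p under 0.05. The median log2 ratio of the 8 genes was 0.21. SPARC, an abundant matrix protein gene of this group, stood at 1121 FPKM in Ross 708 and 991 FPKM in Isfahani. HTRA1, a secreted protease gene, stood at 50.7 FPKM in Ross 708 and 53.2 FPKM in Isfahani.

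Further lists held genes known in mammals to respond to this signalling. Their calls stand beside 3.07% of all tested rows called higher and 2.14% called lower in Ross 708. No list was tested against these shares. Of 13 tested genes that rise with SMAD2 and SMAD3 activity, 3 were called higher in Ross 708 and 0 lower, with a median log2 ratio of 0.47. They were FN1, fibronectin (66.4 FPKM in Ross 708 and 27.2 FPKM in Isfahani), CTGF, a matrix-associated growth regulator (49.5 FPKM in Ross 708 and 25.5 FPKM in Isfahani), and ACTA2, smooth muscle actin (21.3 FPKM in Ross 708 and 10.5 FPKM in Isfahani), whose row overlaps another. All of these are also genes of fibroblasts or smooth muscle. COL1A2 (476 FPKM in Ross 708 and 304 FPKM in Isfahani) and the cell cycle inhibitor CDKN1A (119 FPKM in Ross 708 and 94.3 FPKM in Isfahani) were not called. Of the 13 ratios, 11 were above 0 and 2 below. The feedback gene SKIL and the SMAD corepressor gene TGIF1, chosen after their values were seen, had ratios of -0.08 and 0.16. TGFBI, whose row overlaps 4 others, and LTBP2, also chosen in this way, had ratios of 0.85 and 0.51. None of these 4 genes was called.

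Of 12 tested myogenic genes, 1 was called lower in Ross 708 and 0 higher, with a median log2 ratio of -0.35. The called gene was MYOD1, a transcription factor that commits cells to muscle. It stood at 110 FPKM in Ross 708 and 238 FPKM in Isfahani (log2 ratio -1.10, q = 0.0132 in the authors' deposited table). DES, the desmin gene, stood at 1917 FPKM in Ross 708 and 1971 FPKM in Isfahani and was not called.

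Of 12 tested genes of muscle atrophy and mTORC1, 3 were called lower in Ross 708 and 0 higher, with a median of -0.42. They were the ubiquitin ligase genes FBXO32 (11.4 FPKM in Ross 708 and 25.4 FPKM in Isfahani) and FBXO30 (14.5 FPKM in Ross 708 and 29.5 FPKM in Isfahani) and the transcription factor gene FOXO3 (11.6 FPKM in Ross 708 and 24.03 FPKM in Isfahani). EIF4EBP1, a translation repressor gene (1071 FPKM in Ross 708 and 1560 FPKM in Isfahani), was not called. The ligase gene TRIM63 (125 FPKM in Ross 708 and 217 FPKM in Isfahani) came near a call, with q = 0.0828 in the authors' deposited table. Across these lists, the 1 called myogenic gene and the 3 called atrophy genes were lower in Ross 708. The 3 called SMAD2 and SMAD3 response genes were higher. Whether myostatin has a part in any of these differences was not tested. At an unadjusted p under 0.05 in the authors' deposited table stood 6 of 13 SMAD2 and SMAD3 response genes. The same held for 1 of 12 myogenic genes and 4 of 12 genes of atrophy and mTORC1. No share of all tested rows at that p stands beside these counts, so whether they exceed it was not tested.

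**Figure D4:**
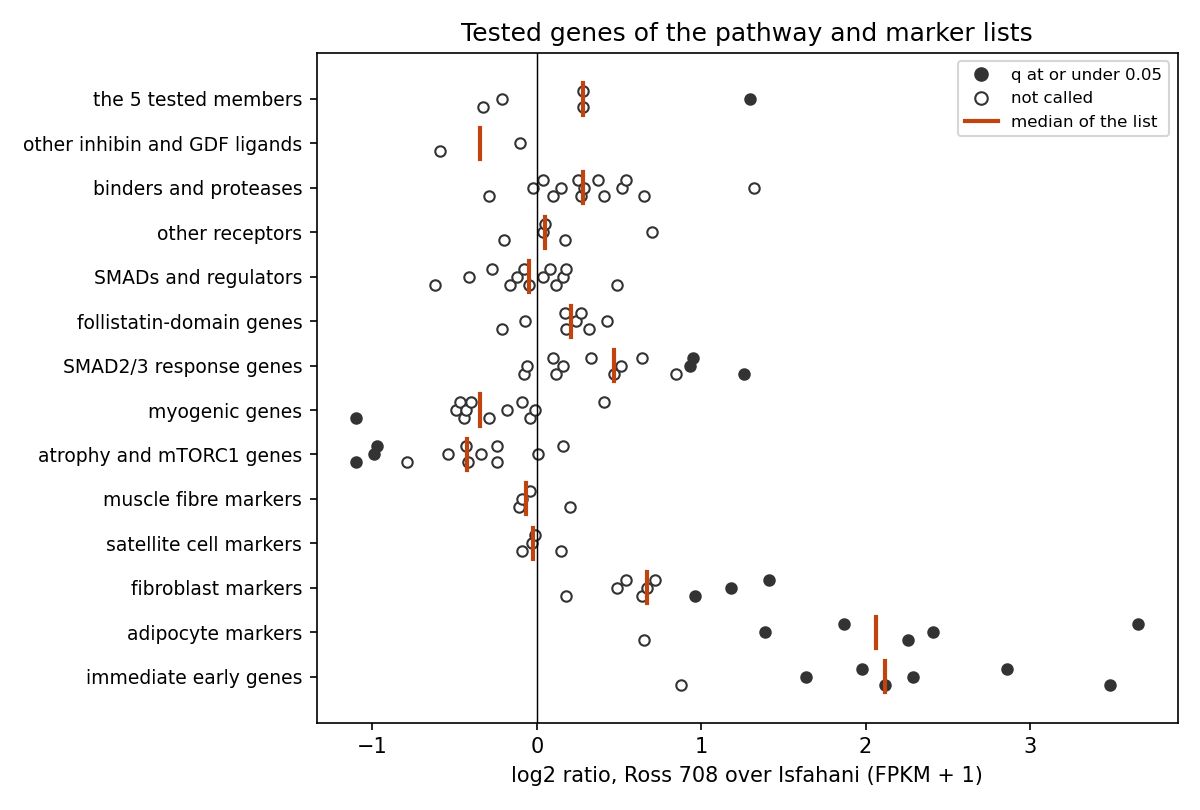
Log2 ratio of Ross 708 over Isfahani (FPKM + 1) for the tested members and each tested gene of the lists drawn, 1 row per list. Filled points have a q-value at or under 0.05, and bars mark list medians. The leukocyte, endothelium, smooth muscle and Schwann cell marker lists are not drawn. The 4 lists of further ligands, binders, receptors and SMAD genes hold no filled point. The myogenic and atrophy lists have medians of -0.35 and -0.42. The adipocyte markers and the immediate early list, which includes HSPA8, have medians of 2.07 and 2.12.

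The tissue label was checked on marker genes. Of 14 muscle fibre markers, 4 were tested and 0 were called, with 0 at an unadjusted p under 0.05, and their summed level was 5023 FPKM in Ross 708 and 4790 FPKM in Isfahani. Of the other 10 markers, 6 had no row, TNNI2, TNNT3 and TNNC2 were listed at 0 in Isfahani alone without a valid estimate, and ACTA1 was at 0 in both breeds. Relative to the median ratio of the 4 tested fibre markers, -0.07, the ratio of MSTN was 1.37. Of 4 tested satellite cell markers 0 were called, again with 0 at an unadjusted p under 0.05, and with sums of 31.0 FPKM in Ross 708 and 30.4 FPKM in Isfahani.

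The called markers of other cell types were all higher in Ross 708, as was MSTN. Calls higher in Ross 708 numbered 3 of 9 for fibroblasts (3234 FPKM in Ross 708 and 1968 FPKM in Isfahani, summed, with COL1A1 at 0), 2 of 8 for leukocytes (2922 FPKM in Ross 708 and 2247 FPKM in Isfahani) and 5 of 6 for adipocytes (419.8 FPKM in Ross 708 and 113 FPKM in Isfahani). They numbered 1 of 4 for smooth muscle (46.96 FPKM in Ross 708 and 29.3 FPKM in Isfahani), 0 of 7 for endothelium (64.7 FPKM in Ross 708 and 45.8 FPKM in Isfahani) and 0 of 2 for Schwann cells (2.48 FPKM in each breed). Over all tested rows, 3.07% were called higher in Ross 708. Of the leukocyte sums, CD74 alone made up 2734 FPKM in Ross 708 and 2138 FPKM in Isfahani. CD74 was not called, and its row overlaps 14 others. A list of immediate early genes, which respond quickly to handling, also held the chaperone gene HSPA8. Of the 7 tested genes of this list, 6 were called higher. HSPA8 was the gene not called, at 365 FPKM in Ross 708 and 198 FPKM in Isfahani (q = 0.0743 in the authors' deposited table). All 7 genes, HSPA8 included, summed to 1148 FPKM in Ross 708 and 378 FPKM in Isfahani. No gene of these lists was called lower. At an unadjusted p under 0.05 in the authors' deposited table stood 5 of 9 fibroblast and 6 of 8 leukocyte markers. The same held for 5 of 6 adipocyte, 1 of 4 smooth muscle, 2 of 7 endothelial and 0 of 2 Schwann cell markers. It also held for all 7 tested genes of the immediate early list. No share of all tested rows at that p stands beside these counts, so whether they exceed it was not tested. The part of these cells and of handling in the ratios of MSTN and the other members was not tested.

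In the authors' deposited tables of term enrichment, MSTN was the only one of the 10 members to appear. Nearly all genes of these sheets match a called row, 270 of 271 in the largest, and MSTN was the only called member. The absence of the other members thus follows from the calls and is no separate observation. MSTN stood in 197 of the 1095 biological process terms of the sheet named "Down GO Ross". Of these 197 terms, 132 had a Benjamini-adjusted p at or under 0.05 in the authors' deposited table. Of all 1095 terms of that sheet, 474 did. All 270 genes of that sheet that match a called row are higher in the column taken as Ross 708, and all 164 of the sheet named "UP GO Native" are lower in it. The name of the first sheet can be read as down in Ross, so by itself it does not settle which breed the column is. The breed was read instead from the sample names in the expression table and the breed labels. Of 44 terms in "Down GO Ross" with the word muscle, 15 list MSTN, and 8 of the 15 pass in the authors' deposited table. The strongest of these 15 was muscle structure development, with 33 genes, a fold enrichment of 3.40 and an adjusted p of 2.10e-07 in the authors' deposited table. Of 18 terms on TGF-beta, BMP or SMAD signalling, 7 list MSTN, and the 4 that pass in the authors' deposited table are among these 7. These 4 of 18 are a smaller share than the 474 of 1095 terms that pass in the whole sheet. No count of passing terms was tested against that share. SMAD protein signal transduction held 6 genes, with a fold enrichment of 5.97 and an adjusted p of 0.0387 in the authors' deposited table. The terms share genes, so they are not separate evidence. The pathway sheet named "Down Kegg Ross", with 29 terms, lists no member, and neither does "UP GO Native", with 254 terms.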

How the data were processed

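Trizol-extracted RNA was made into TruSeq libraries and read as pairs of 150 bases, per the labels' protocols. Reads were processed on galGal5 by means of Cufflinks 2.2.1, HISAT2, Trimmomatic and FastQC 0.11.5, per the submitters' processing notes. The deposited table, however, uses linkage group and scaffold names of the earlier galGal4 assembly, so the build of the coordinates is uncertain. Starts of 0 occur in it, so 1 was added to each start. The authors deposited 1 FPKM value per breed, the log2 fold change, a test statistic (a score, not used), and p-values and q-values, per the file headers. Benjamini-Hochberg adjustment of the deposited p-values over the 11626 tested rows gives the q-values to within 5.22e-07. The enrichment sheets hold the authors' gene counts, a fold enrichment (a ratio), adjusted and raw p-values, and a false discovery rate (a score, not used), per the file headers. The sources used here do not give sequencing depth, library scaling or the dispersion model, so no interval was computed.

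The authors' q-values served as the test, since a model fit needs values per library. How far they measure the spread between the 2 pools of a breed is unknown, and the spread may be technical. Ratios used a pseudocount of 1 FPKM, which understates the change of low genes. A symbol on several rows was represented by its most expressed row. The named genes are all members, every called gene of the 8 pathway lists, and up to 2 uncalled genes per list with the highest mean FPKM; others were chosen after their values were seen. A gene that this rule names is not reported here. The members and lists were chosen with earlier results of these data known. Python 3.11.15, pandas 2.3.3 and numpy 2.4.6 were used.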

Additional observations from a re-analysis of the deposited data

How the results depend on the processing

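The log2 ratios of the 6 members above 0 kept their direction in all 42 values under 7 alternatives (2 pseudocount settings, rescaling to a common sum with and without rows of no valid estimate, centring, summing rows of a symbol, and, chosen after seeing the data, expression relative to muscle fibre markers). A change of pseudocount cannot reverse a direction, and summing rows left every ratio as it was, so these settings did not check direction. The ratio of MSTN ran from 1.17 to 1.37, that of FST from 0.16 to 0.35 and that of FSTL1 from 0.15 to 0.35. The ratio of INHBA ran from -0.31 to -0.14 and that of ACVR2B from -0.86 to -0.27. INHBB, not tested by the authors, ran from 0.26 to 3.26. Rescaling to the sum of all rows shifts log2 FPKM in Ross 708 by -0.13, and ratios of low genes by less because of the pseudocount. That sum includes 39 rows of status HIDATA, listed at 0 in Isfahani; without rows of status HIDATA or FAIL the shift is 0.05. The member counts, 1 higher and 0 lower in Ross 708, were the same under all 5 alternatives (q at or under 0.01 or 0.1, a 2-fold minimum, rows without overlap, at least 1 FPKM). None of these settings could change the counts, because MSTN passes every filter with a q-value of 0.00245 in the authors' deposited table. The other tested members had q-values of 0.453 or more there. Across the 8 pathway lists, 3 genes were called higher and 4 lower in Ross 708. Together these were 9.21% of 76 tested genes, beside 5.21% of all tested rows, a difference that was not tested. At a q-value of 0.01 the counts became 1 (FN1) and 1 (FBXO32), and at 0.1 they became 4 and 5, by construction of the changed threshold. No paired analysis was possible because the table holds 1 value per breed, and for the same reason leaving out a library was not run.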

Other observations

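WFIKKN2, chosen after its values were seen, encodes a secreted antagonist of myostatin and GDF11. It was listed at 1.62 FPKM in Ross 708 and 0.0493 FPKM in Isfahani, a log2 ratio of 1.32. Its q-value of 0.165 in the authors' deposited table missed the threshold. Its ratio was the largest of the 34 genes tested in the 4 lists of ligands, binders, receptors and SMAD genes, at a level where both values are low. The other 5 genes of these lists with an unadjusted p under 0.05 in the authors' deposited table were FMOD, IGSF1, TGFBR2, TLL2 and USP15, and USP15 alone of these had a negative ratio.

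The nearest tested genes on either side of MSTN were not called. HIBCH, which lies 27471 bases away, stood at 43.99 FPKM in Ross 708 and 58.6 FPKM in Isfahani, and PMS1, 33768 bases away, stood at 12.7 FPKM in Ross 708 and 9.49 FPKM in Isfahani.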
